A study of Homo sapiens with 4 samples.

Results

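The adrenergic core regulatory circuit of neuroblastoma is a group of transcription factors that hold the sympathoadrenal state of the tumor cell, and 8 of its genes were examined here: PHOX2A, HAND2, GATA2, GATA3, ISL1, TBX2, INSM1 and TFAP2B. They were chosen by name, as factors of this circuit. Their values were not part of the rule, but earlier results of these data were known when it was made. The genes were matched by GENCODE symbol to Ensembl identifiers among the 64252 genes of the table. All 8 members were found, and 8 of 8 passed the filter on low counts that left 18779 genes for testing. The cells were SK-N-BE(2), an established human neuroblastoma line with amplified MYCN, and RNA-seq libraries were made from cells carrying scrambled shRNA (sh-Scb, the control group) or an shRNA against SAPCD2 (sh-SAPCD2), with 2 libraries per group. The study asked which genes depend on SAPCD2, a gene that it linked to neuroblastoma progression. The study's methods describe lentiviral infection and puromycin selection for stable knockdown cells, without saying how the libraries analysed here were made, while the labels give both groups as transfected with their shRNA. A single cell line was compared. The labels do not say which of the SAPCD2 shRNAs was used for these libraries, nor whether the libraries of a group came from separate cultures, so the p-values measure only the spread between these samples, which may be technical.

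Neuroblastoma arises from precursors of sympathetic neurons and chromaffin cells. In the adrenergic state of these tumors a small set of lineage transcription factors binds the enhancers of its own genes and of each other, so that each factor helps to keep the others expressed, and the same factors drive genes of catecholamine synthesis and storage. A second state, the mesenchymal state, rests on a different set of factors. PHOX2A is a paired-like homeodomain protein, HAND2 a basic helix-loop-helix protein that binds the E-box with E-protein partners, GATA2 and GATA3 zinc-finger proteins that bind GATA motifs, ISL1 a LIM-homeodomain protein, TBX2 a T-box repressor, INSM1 a zinc-finger repressor of neuroendocrine cells, and TFAP2B a member of the AP-2 family.

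SAPCD2 (ENSG00000186193), the targeted gene, was lower in both sh-SAPCD2 libraries. Its level was 83.4 and 82.1 CPM (the gene's counts divided by the library total, scaled by its TMM factor) in the sh-Scb libraries and 35.3 and 52.4 CPM in the sh-SAPCD2 libraries. The fitted log2 fold change was −0.91 (SE 0.193, edgeR quasi-likelihood test, adjusted p = 0.0206), and −1.29 with correction for GC content and length. Without the filter on low counts the call was lost (edgeR, adjusted p = 0.0749). The libraries held 25347900 to 31850997 counts, and 3 counts, taken as the smallest detectable amount, equaled 0.0942 to 0.118 CPM, a floor that covers counting error only. The sh-SAPCD2 libraries stood apart from each other more than the sh-Scb libraries did, with a chi-square per degree of freedom of 38.6 against 4.47 over genes, and this gap followed GC content: from the lowest to the highest of 5 equal groups of genes by GC content, the median ratio of the second sh-SAPCD2 library to the first went from 0.837 to 1.33, while that of the sh-Scb libraries went from 1.01 to 0.990. The median log2 fold change (sh-SAPCD2 minus sh-Scb) also rose over these groups of genes, from −0.09 in the lowest to 0.27 in the highest. The correction for GC content and length is made per library and takes out this trend as well. GC content was 45.4% to 66.5% in the members and 48.4% in the median tested gene. Shares of all tested genes are not matched to the members in GC content. Values corrected for GC content and length are therefore given beside each member and beside other named genes whose call or direction they change. The labelled cell type was checked against its markers: all 8 sympathoadrenal markers were detected, with a summed level of 4194 to 4288 CPM in the sh-Scb libraries and 3337 to 3516 CPM in the sh-SAPCD2 libraries.

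Of the 8 factors, ISL1 and TBX2 passed the test as lower and none passed as higher. This makes 2 of 8 lower at an adjusted p under 0.05, against 12.5% of all tested genes lower, and 0 of 8 higher, against 12.4% of all tested genes higher and 24.8% called in either direction. With so few genes these counts are a description and were not tested against the shares. The largest absolute log2 fold change was that of INSM1, 0.66, which did not pass. None was a differentially expressed gene (DEG), defined by an adjusted p under 0.05 and an absolute log2 fold change over 1, against 9.84% of all tested genes, 4.69% higher and 5.15% lower. The targeted gene SAPCD2, at −0.91, did not meet this definition either, though it did at −1.29 with correction for GC content and length. At an unadjusted p under 0.05, 4 of 8 members passed, against 39.4% of all tested genes. Of these 4 members 0 had an absolute log2 fold change over 1, and DESeq2 also called 0 of the 8 as a DEG. The median log2 fold change was −0.05 over the members and 0.02 over all tested genes. The levels of the groups did not overlap for 3 members that were lower and 1 that was higher in the SAPCD2-knockdown cells, whereas 33.4% and 33.5% of all tested genes were separated in these directions and 67% in either. In a bulk sample, fewer cells of a type and less RNA per cell cannot be told apart.

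**Figure D1:**
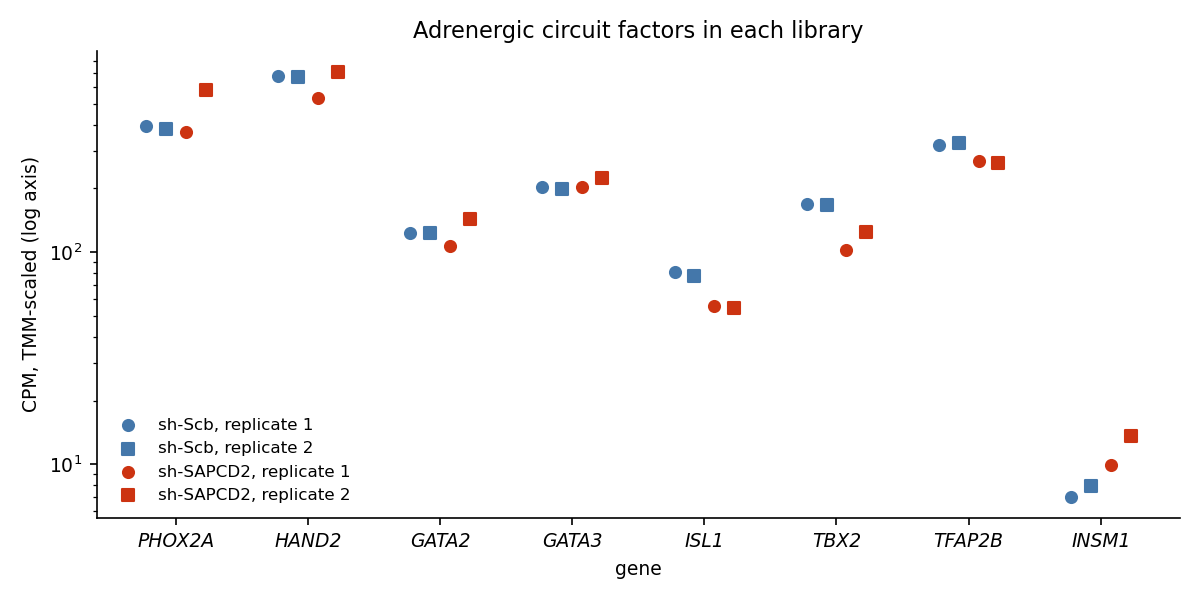
Level of each of the 8 circuit factors in each library, in TMM-scaled CPM on a log axis, with sh-Scb in blue, sh-SAPCD2 in red, circles for replicate 1 and squares for replicate 2. For ISL1, TBX2 and TFAP2B both red points lie below both blue points, for INSM1 both lie above, and for the other 4 genes the groups overlap.

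ISL1 (ENSG00000016082, hg38 chr5:51383448-51394730, plus strand, 6 exons) was expressed at 80.6 and 77.5 CPM in the sh-Scb libraries and at 55.7 and 54.6 CPM in the sh-SAPCD2 libraries. Both knockdown libraries lay below both control libraries, and they differed from each other by less than the control libraries did. The mean fell from 79.0 ± 2.24 to 55.2 ± 0.831 CPM (SD, n = 2 per group), which is 69.8% of the control mean. The log2 fold change was −0.52 (SE 0.106, 95% confidence interval −0.78 to −0.26, edgeR quasi-likelihood test, adjusted p = 0.0185). With correction for GC content and length it was −0.41 (edgeR, adjusted p = 0.00397). The call was lost when either sh-Scb library was left out, where edgeR gave −0.49 (adjusted p = 0.288) without the first and −0.55 (adjusted p = 0.219) without the second.

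The start of ISL1 is shared with a divergent noncoding gene, ISL1-DT, whose annotated start lies 116 bp away on the other strand. ISL1-DT was at 33.3 and 32.4 CPM in the sh-Scb libraries and at 13.5 and 14.98 CPM in the sh-SAPCD2 libraries. Both transcripts of this start region were therefore lower in both knockdown libraries. ISL1-DT fell by 1.21 on the log2 scale (SE 0.137, edgeR, adjusted p = 0.00415). Within a library, ISL1 had 2.42 and 2.39 counts per count of ISL1-DT with sh-Scb and 4.14 and 3.64 with sh-SAPCD2. The 300-base promoter windows of ISL1 and ISL1-DT in the RefSeq table (build GRCh38.p14) overlap by 215 bases, and the former is shown because both transcripts that fell start from it (chr5:51383198-51383497, plus strand, 5′ to 3′). Capitals mark 1 match to the GATA motif GATAAG and 1 to the E-box CANNTG, the motifs bound by GATA2 and GATA3 and by HAND2.
ISL1: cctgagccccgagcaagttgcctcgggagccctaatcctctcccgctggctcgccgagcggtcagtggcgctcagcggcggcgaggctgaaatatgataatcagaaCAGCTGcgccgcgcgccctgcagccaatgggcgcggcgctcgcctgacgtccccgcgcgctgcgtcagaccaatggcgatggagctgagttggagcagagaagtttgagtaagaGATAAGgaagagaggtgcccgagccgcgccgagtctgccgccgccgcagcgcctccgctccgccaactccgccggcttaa
Counted on both strands, GATAAG was present in 6.36% and CANNTG in 68.9% of 27305 RefSeq promoter windows of this length. The homeodomain motif TAATTA (4.98% of windows) and the E2F motifs TTCCCGC and TTGGCGC (9.33% for either) had no match in the window. A match is a description of the letters only.

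TBX2 (ENSG00000121068, hg38 chr17:61399843-61409466, plus strand, 7 exons) was expressed at 169 and 168 CPM in the sh-Scb libraries and at 103 and 125 CPM in the sh-SAPCD2 libraries. Both knockdown libraries lay below both control libraries, and the second knockdown library lay closer to the controls. The mean fell from 169 ± 0.942 to 114 ± 15.8 CPM (SD, n = 2 per group), or 67.7% of the control mean, with a log2 fold change of −0.56 (SE 0.124, 95% confidence interval −0.86 to −0.26, edgeR, adjusted p = 0.0234). TBX2 has a GC content of 66.1%, and the corrected levels were 193 and 192 CPM in the control group against 111 and 96.3 CPM in the SAPCD2-knockdown group. The corrected log2 fold change was −0.90 (SE 0.0776, edgeR, adjusted p = 2.62e-04). The call was lost, with almost the same log2 fold change, without the filter on low counts (−0.56, edgeR, adjusted p = 0.0702) and when either sh-Scb library was left out, at −0.56 (adjusted p = 0.186) without the first and −0.57 (adjusted p = 0.175) without the second.

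TFAP2B (ENSG00000008196, hg38 chr6:50818723-50847619, plus strand, 7 exons) was at 320 and 327 CPM in the sh-Scb libraries and at 270 and 264 CPM in the sh-SAPCD2 libraries. The groups were separated, and the difference was smaller than that of ISL1 or TBX2. Its log2 fold change of −0.27 (SE 0.0913, 95% confidence interval −0.50 to −0.05) did not pass the test (edgeR, adjusted p = 0.0753). It passed with correction for GC content and length, at −0.23 (edgeR, adjusted p = 0.0215). The log2 fold change was −0.30 without the first sh-SAPCD2 library and −0.26 without the second. TFAP2B was also the member whose 3′ untranslated region matched the seed of an shRNA. The site ACCTTCA, complementary to bases 2 to 8 of the guide strand of sh-SAPCD2 #1, occurred 2 times in it, in none of the other 7 members, and in 12.5% of the 13584 tested genes with an annotated region. The site GAGATGA of sh-SAPCD2 #2 occurred in 14.8% of them and in 0 members. The region is 4227 bases long in TFAP2B and 672 to 1592 bases long in the other members. The shares are not adjusted for length. The part of these sites in the values was not tested.

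INSM1 (ENSG00000173404, hg38 chr20:20368104-20370949, plus strand, a single-exon gene) was the lowest of the 8 factors, at 7.05 and 7.95 CPM in the sh-Scb libraries and 9.98 and 13.6 CPM in the sh-SAPCD2 libraries. Both knockdown libraries lay above both control libraries, far above the detection floor. The log2 fold change was 0.66 (SE 0.211, 95% confidence interval 0.15 to 1.17) and did not pass the test (edgeR, adjusted p = 0.0683). With correction for GC content and length it was 0.40 (edgeR, adjusted p = 0.0637). Without the first sh-SAPCD2 library it was 0.86, and without the second 0.41.

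PHOX2A (ENSG00000165462, hg38 chr11:72239077-72245664, minus strand, 3 exons) was at 393 and 380 CPM in the sh-Scb libraries and at 368 and 580 CPM in the sh-SAPCD2 libraries. The knockdown libraries lay on either side of the controls. The means were 387 ± 9.10 and 474 ± 150 CPM (SD, n = 2 per group), and the log2 fold change of 0.29 (SE 0.207, 95% confidence interval −0.21 to 0.80) did not pass the test (edgeR, adjusted p = 0.336). PHOX2A had the highest GC content of the members, 66.5%, and after correction the sh-SAPCD2 libraries were at 408 and 434 CPM against 451 and 432 CPM in the controls. The corrected log2 fold change had the opposite sign, −0.07 (SE 0.0610, edgeR, adjusted p = 0.399). Without the first sh-SAPCD2 library the log2 fold change of PHOX2A was 0.58, and without the second it was −0.07. PHOX2A exons overlap those of INPPL1 on the other strand.

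HAND2 (ENSG00000164107, hg38 chr4:173524969-173530229, minus strand, 2 exons) was at 678 and 674 CPM in the sh-Scb libraries and at 534 and 709 CPM in the sh-SAPCD2 libraries. The first knockdown library lay below the controls and the second above them. The log2 fold change was −0.12 (SE 0.145, 95% confidence interval −0.48 to 0.23, edgeR, adjusted p = 0.573). After correction for GC content and length both knockdown libraries lay below the controls, at 564 and 642 CPM against 712 and 725 CPM, and the log2 fold change of −0.25 passed the test (SE 0.0744, edgeR, adjusted p = 0.0334). The log2 fold change of HAND2 was −0.34 without the second sh-SAPCD2 library and 0.06 without the first.

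HAND2-AS1 is a noncoding gene on the opposite strand, whose annotated start lies 2959 bp from that of HAND2. It was at 745 and 729 CPM in the sh-Scb libraries and at 248 and 239 CPM in the sh-SAPCD2 libraries. Both knockdown libraries lay below both controls and close to each other, unlike those of HAND2. HAND2-AS1 fell by 1.60 on the log2 scale (SE 0.0922, edgeR, adjusted p = 0.00201), and by 1.43 with correction for GC content and length. Its corrected levels were 724 and 694 CPM with sh-Scb and 253 and 274 CPM with sh-SAPCD2. The number of HAND2 counts per count of HAND2-AS1 was 0.910 and 0.924 with sh-Scb and 2.16 and 2.96 with sh-SAPCD2. This ratio was not corrected for GC content, which was 58.5% for HAND2 and 40.6% for HAND2-AS1. With 2 libraries against 2, an exact two-sided permutation test cannot go below p = 0.333, which is the value for this ratio. Exons of the pair overlap, and whether the counting used strand is not given in the sources used here, so reads of the overlap cannot be told apart. The promoter windows of the pair are shown because these neighbors differed in their response, HAND2 on the minus strand (chr4:173530180-173530479) and HAND2-AS1 on the plus strand (chr4:173528350-173528649), both 5′ to 3′ from RefSeq GRCh38.p14, with capitals for E-box (CANNTG) and homeodomain (TAATTA) matches.
HAND2: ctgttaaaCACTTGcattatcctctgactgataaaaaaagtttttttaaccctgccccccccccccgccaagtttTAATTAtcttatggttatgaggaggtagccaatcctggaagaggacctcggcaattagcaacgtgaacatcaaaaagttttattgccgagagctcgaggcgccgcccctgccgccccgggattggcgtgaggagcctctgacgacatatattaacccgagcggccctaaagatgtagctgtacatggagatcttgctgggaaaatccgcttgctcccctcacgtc
HAND2-AS1: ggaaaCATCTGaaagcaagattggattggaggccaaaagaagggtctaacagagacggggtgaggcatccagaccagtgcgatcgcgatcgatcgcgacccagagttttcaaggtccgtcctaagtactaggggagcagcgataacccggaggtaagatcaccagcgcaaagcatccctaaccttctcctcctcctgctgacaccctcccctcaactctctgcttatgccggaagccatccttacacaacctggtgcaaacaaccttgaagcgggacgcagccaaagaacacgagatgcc
The HAND2 window held 1 E-box and 1 homeodomain match, and the HAND2-AS1 window held 1 E-box match. Neither held GATAAG or an E2F motif.

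GATA2 (ENSG00000179348, hg38 chr3:128479427-128493201, minus strand, 6 exons) was at 123.6 and 123.5 CPM in the sh-Scb libraries and at 107 and 144 CPM in the sh-SAPCD2 libraries. The knockdown libraries lay on either side of the controls, which were almost equal. The log2 fold change was 0.02 (SE 0.153, 95% confidence interval −0.35 to 0.40, edgeR, adjusted p = 0.922). Its direction turned with the library left out: it was 0.21 without the first sh-SAPCD2 library and −0.20 without the second. With correction for GC content and length it was −0.14 (edgeR, adjusted p = 0.166).

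GATA3 (ENSG00000107485, hg38 chr10:8045378-8075198, plus strand, 6 exons) was at 204 and 199 CPM in the sh-Scb libraries and at 203 and 225 CPM in the sh-SAPCD2 libraries. The first knockdown library lay between the controls. The log2 fold change was 0.09 (SE 0.101, 95% confidence interval −0.16 to 0.34, edgeR, adjusted p = 0.557). This interval, taken over both groups, leaves room for a change of up to 0.34 on the log2 scale. Without the first sh-SAPCD2 library the log2 fold change of GATA3 was 0.15. After correction for GC content and length it was at 210 and 222 CPM after knockdown against 209 and 207 CPM in the controls, a log2 fold change of 0.05 (edgeR, adjusted p = 0.494). Of the other promoter windows looked up, that of PHOX2A held 1 E-box, that of TFAP2B held 2, and those of GATA2 and GATA3 held no match to any of the motifs. The windows of 6 of the 8 members were matched, and those of TBX2 and INSM1 were not.

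**Figure D2:**
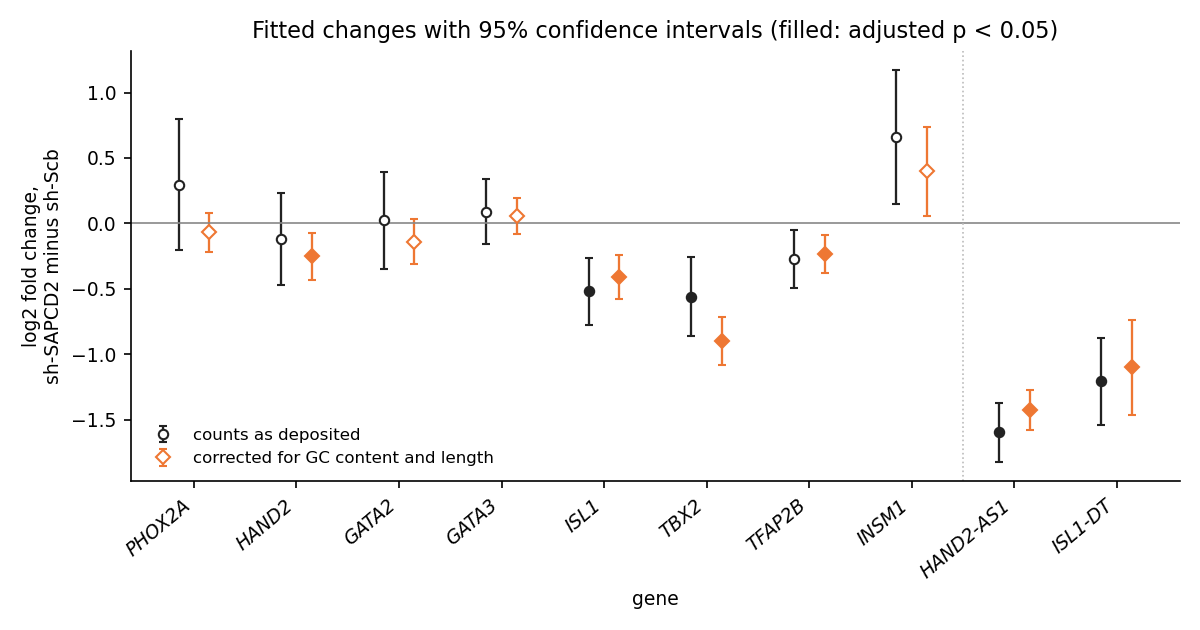
Fitted log2 fold change (sh-SAPCD2 minus sh-Scb) of the 8 factors and, right of the dotted line, of HAND2-AS1 and ISL1-DT. Circles are from the counts as deposited and diamonds from the fit corrected for GC content and length, bars are 95% confidence intervals, and filled points have an adjusted p under 0.05. ISL1 and TBX2 are filled in both fits, HAND2 and TFAP2B in the corrected fit only.

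The knockdown libraries of the members stood apart to differing degrees. Of the 8 members, 6 were higher in the second than in the first sh-SAPCD2 library. The ratio of the second to the first was 1.57 for PHOX2A, 1.37 for INSM1, 1.34 for GATA2, 1.33 for HAND2, 1.22 for TBX2 and 1.11 for GATA3, and it was 0.979 for ISL1 and 0.978 for TFAP2B. The members with the lowest GC content, ISL1 (45.4%) and TFAP2B (48.4%), thus had the most similar knockdown libraries. Across the 8 members, Pearson's r of this ratio with GC content was 0.883, as it was 0.637 across 13644 genes over 1 CPM in every library. These correlations are across genes of the same libraries and are descriptions. The corresponding values for the sh-Scb libraries were 0.238 and −0.0440. With correction for GC content and length, 4 of the 8 members were lower (ISL1, TBX2, HAND2 and TFAP2B) and 0 were higher, against 19.5% of all tested genes lower and 21.7% higher in that fit.

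**Figure D3:**
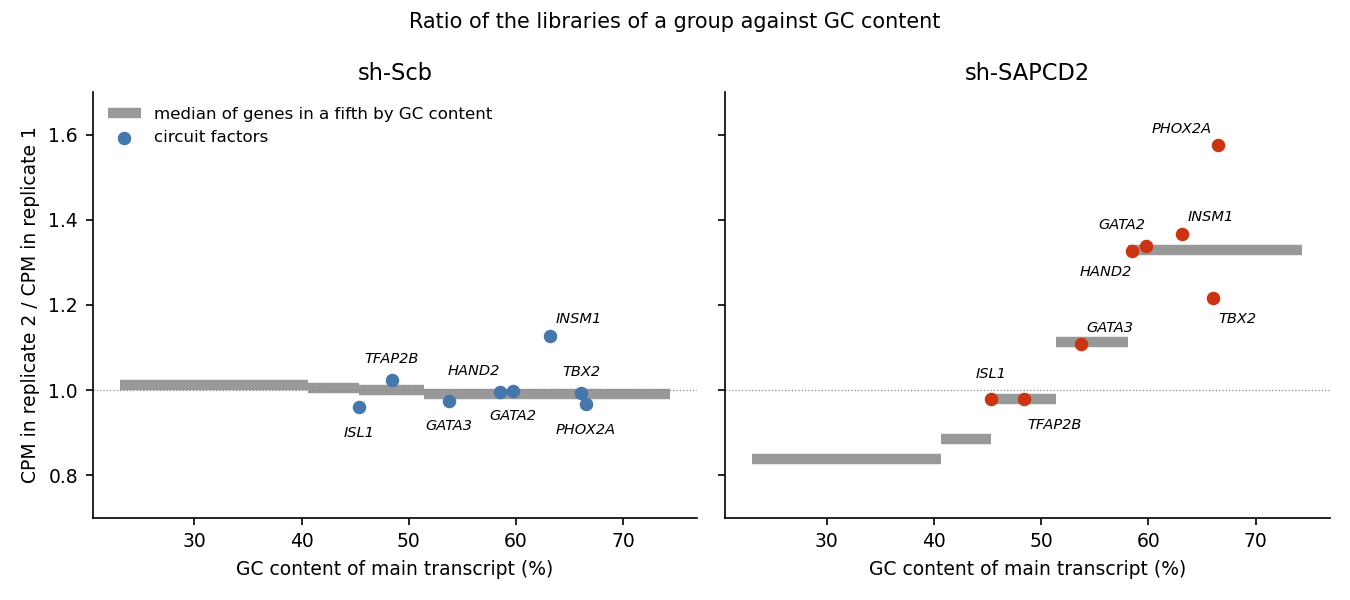
Ratio of the CPM of replicate 2 to that of replicate 1 within each group, against the GC content of the main transcript, in percent. Points are the 8 factors and gray bars are medians of 5 equal groups of genes by GC content. The bars are nearly flat for sh-Scb and climb from 0.837 to 1.33 for sh-SAPCD2, and the points of PHOX2A, INSM1, GATA2 and HAND2 lie at the high end.

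Levels were compared between the factors per kilobase of merged exon. PHOX2A was highest in the control group at 217 ± 5.10 CPM per kb, followed by HAND2 at 188 ± 0.704 CPM per kb (SD, n = 2 for each). GATA3 (59.4 ± 1.05), TFAP2B (52.5 ± 0.857), ISL1 (28.1 ± 0.795), TBX2 (27.7 ± 0.155) and GATA2 (25.1 ± 0.0190 CPM per kb) came next, and INSM1 was lowest at 2.64 ± 0.223 CPM per kb. ISL1 and TBX2 differed by less than the spread of ISL1. In the SAPCD2-knockdown cells GATA2, at 25.6 ± 5.24 CPM per kb, lay above ISL1 at 19.6 ± 0.295 and TBX2 at 18.8 ± 2.59 CPM per kb, and ISL1 and TBX2 again could not be ordered. The order depended on the length used. Per kilobase of the main transcript HAND2 (243 CPM per kb) came before PHOX2A (228 CPM per kb) in the control group, and TBX2 (49.1 CPM per kb) before GATA2 (36.5) and ISL1 (33.0 CPM per kb).

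Several members have a close relative among the tested genes. The relation of the pair was read within each library as a ratio of counts, which needs no scaling for library size. These ratios were not corrected for GC content, so they still carry its effect where the genes of a pair differ in it. TBX3, the T-box repressor most like TBX2, rose by 0.85 on the log2 scale (edgeR, adjusted p = 0.00591), from 60.5 and 67.5 CPM to 111 and 120 CPM. There were 2.80 and 2.49 TBX2 counts per TBX3 count in the controls and 0.928 and 1.05 after knockdown. The pair thus went from a clear excess of TBX2 to about equal counts.

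INSM2, the other gene of the INSM family, was the more abundant of its pair and fell by 1.44 (edgeR, adjusted p = 0.00263), from 434 and 442 CPM to 145 and 178 CPM. INSM1 counts per INSM2 count were 0.0162 and 0.0180 in the controls and 0.0687 and 0.0765 after knockdown. HAND1 rose by 0.40 (edgeR, adjusted p = 0.0421), and HAND2 counts per HAND1 count were 8.58 and 9.19 in the controls and 5.51 and 6.81 after knockdown. GATA3 counts per GATA2 count were 1.65 and 1.61 in the controls and 1.89 and 1.57 after knockdown, with overlapping groups. Of 14 listed paralogs, 6 were tested, of which 2 rose and 1 fell, against 12.4% and 12.5% of all tested genes. Their median log2 fold change was 0.40. With a filter of a mean of at least 1 CPM, 3 paralogs remained, with a median of 0.39. The calls of HAND1 (adjusted p = 0.353) and TBX3 (adjusted p = 0.0646) were lost in edgeR without the first sh-Scb library, and that of HAND1 (adjusted p = 0.513) without the second. HAND1 also did not pass with the replicate block (0.40, edgeR, adjusted p = 0.0669), which left 1 paralog higher, or without the filter on low counts (0.40, adjusted p = 0.0934).

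**Figure D4:**
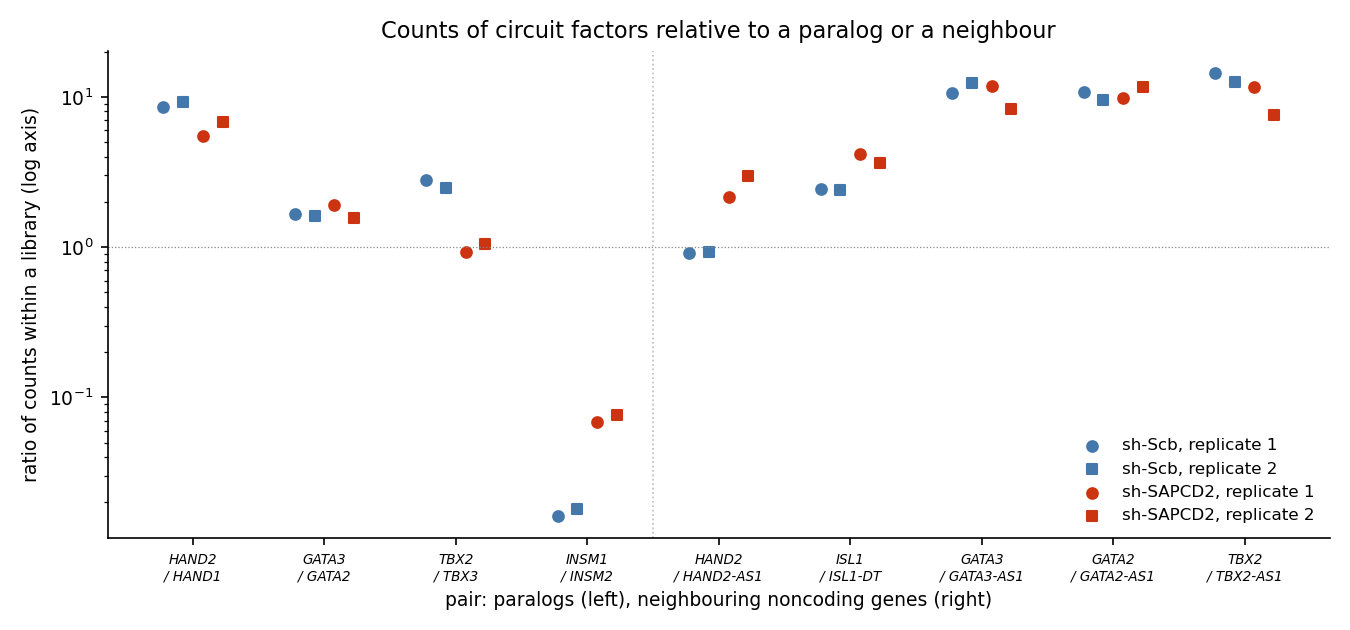
Counts of a circuit factor per count of a paralog (left of the dotted line) or of a neighboring noncoding gene (right) within each library, on a log axis, with sh-Scb in blue and sh-SAPCD2 in red. The groups are separated for HAND2/HAND1, TBX2/TBX3, INSM1/INSM2, HAND2/HAND2-AS1, ISL1/ISL1-DT and TBX2/TBX2-AS1.

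The noncoding neighbors of the GATA genes and of TBX2 did not pass the test. GATA3-AS1 had a log2 fold change of 0.33 (95% confidence interval −0.24 to 0.91, edgeR, adjusted p = 0.345), GATA2-AS1 of −0.06 (−0.46 to 0.34, adjusted p = 0.824) and TBX2-AS1 of 0.02 (−0.71 to 0.75, adjusted p = 0.967). The corrected log2 fold changes were 0.19 for GATA3-AS1 (edgeR, adjusted p = 0.362), 0.05 for GATA2-AS1 (adjusted p = 0.819) and −0.22 for TBX2-AS1 (adjusted p = 0.396), so the latter pair turned sign. Without the first sh-SAPCD2 library the log2 fold change of GATA3-AS1 was 0.61, and without the second it was −0.02. That of TBX2-AS1 was 0.40 and −0.51 in these fits. TBX2 counts per TBX2-AS1 count were 14.4 and 12.6 in the controls and 11.7 and 7.56 after knockdown. Exons of GATA2 overlap those of GATA2-AS1, and exons of TBX2 overlap those of another antisense gene, ENSG00000267131. In all, 2 of the 5 noncoding neighbors tested fell, HAND2-AS1 and ISL1-DT, and 0 rose, against 12.5% and 12.4% of all tested genes.

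Among 15 other transcription factors of the adrenergic lineage, 5 rose and 3 fell, against 12.4% and 12.5% of all tested genes. Their median log2 fold change was 0.16. EYA1, a coactivator of sine oculis homeodomain proteins, fell by 1.23 on the log2 scale (edgeR, adjusted p = 0.00321). MYCN, the amplified oncogene of this line, rose from 3231 and 3174 CPM to 5897 and 7082 CPM, a log2 fold change of 1.02 (adjusted p = 0.00378). HEY1, a repressor downstream of Notch, rose by 1.86 (adjusted p = 0.00215). SOX11, a SOX factor of neuronal precursors, rose by 0.69 (adjusted p = 0.00752), and SATB1, a chromatin organizer, fell by 0.65 (adjusted p = 0.00993). Called genes of this list thus lay in both directions. Without either sh-Scb library fewer of the 15 were called, as fewer of all tested genes were. SOX11 (0.71 and 0.66) and SATB1 (−0.64 and −0.66) were among the calls lost without the first and the second.

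The protein partners of the members were also counted. Of 20 tested partners, 3 fell and 1 rose, against 12.5% and 12.4% of all tested genes. Their median log2 fold change was −0.08. LMO1, a LIM-only cofactor that joins GATA and basic helix-loop-helix proteins into complexes, was at 17.6 and 16.3 CPM in the controls and at 8.25 and 8.33 CPM after knockdown, and fell by 1.03 (edgeR, adjusted p = 0.00759). RCOR1, a scaffold of the LSD1 corepressor complex to which INSM1 binds, fell by 0.97 (adjusted p = 0.0180), and TCF4, an E-protein that pairs with HAND2, fell by 0.76 (adjusted p = 0.0112). ZFPM1, a cofactor of GATA proteins, rose by 0.62 (adjusted p = 0.0461). In the fit corrected for GC content and length, 7 of the partners were lower and 0 higher, against 19.5% and 21.7% of all tested genes. The call of ZFPM1 was lost there, at 0.20 (edgeR, adjusted p = 0.292). It was also lost without either sh-Scb library (adjusted p = 0.189 and 0.292) and without the second sh-SAPCD2 library (adjusted p = 0.0514). Without the first sh-SAPCD2 library 7 partners were called lower and 3 higher, where 20.2% and 22.1% of all tested genes were, and without the second 7 were lower and 1 higher, against 17.7% and 17.9%. The call of RCOR1 was lost without the filter on low counts (−0.97, edgeR, adjusted p = 0.0684).

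Among 17 tested sympathoadrenal genes known as targets of the circuit, 4 fell and 2 rose, against 12.5% and 12.4% of all tested genes. Their median log2 fold change was 0.19. DBH, the enzyme that makes noradrenaline, fell by 1.35 (edgeR, adjusted p = 0.00207), from 154 and 146 CPM to 57.8 and 60.0 CPM. SLC6A2, the noradrenaline transporter, fell by 1.34 (adjusted p = 0.00342), and CHGB, a protein of secretory granules, by 0.83 (adjusted p = 0.00387). RET, a receptor tyrosine kinase of sympathetic precursors, rose by 1.35 (adjusted p = 0.00264) and SCG2, another granule protein, by 1.34 (adjusted p = 0.00263). TH, the enzyme at the first step of catecholamine synthesis, had a log2 fold change of 0.22 (adjusted p = 0.426), with overlapping groups, and of −0.12 with correction for GC content and length (edgeR, adjusted p = 0.167). With correction for GC content and length, 7 of these genes were higher and 6 lower, against 21.7% and 19.5% of all tested genes in that fit. The log2 fold change of TH was 0.47 without the first sh-SAPCD2 library and −0.09 without the second.

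**Figure D5:**
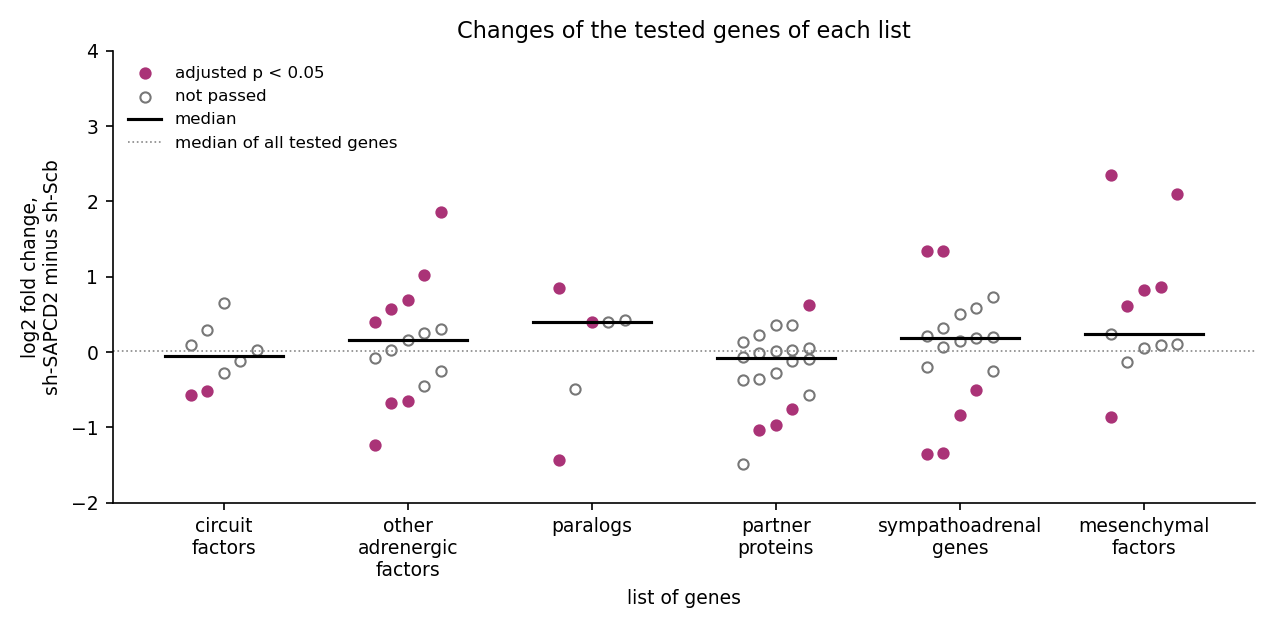
Fitted log2 fold change (sh-SAPCD2 minus sh-Scb) of each tested gene of 6 lists, filled where the adjusted p was under 0.05, with the median of each list as a black line and the median of all tested genes dotted. The 8 circuit factors span −0.56 to 0.66, a narrower range than the other 5 lists, each of which holds called genes in both directions. The other lists hold 6 to 20 tested genes, some with low counts, and a range depends on both.

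The factors of the mesenchymal state were mostly at low levels. Of 18 listed, 11 were tested, and PRRX1, a factor that defines this state, had 0 counts in every library. Of the 11, 5 rose and 1 fell, against 12.4% and 12.5% of all tested genes. Their median log2 fold change was 0.24. FOSL1, a partner of JUN in AP-1, was at 0.578 and 1.05 CPM in the controls and at 4.22 and 4.17 CPM after knockdown, and rose by 2.36 on the log2 scale (edgeR, adjusted p = 0.00717). MAFF, a small MAF factor, rose by 2.096 (adjusted p = 0.00263), AEBP1 by 0.87 (adjusted p = 0.0102) and FOSL2 by 0.61 (adjusted p = 0.0138). NR3C1, the glucocorticoid receptor, fell by 0.86 (adjusted p = 0.0134). Without either sh-Scb library fewer of the list were called, as fewer of all tested genes were. FOSL2 (0.59) and AEBP1 (0.86) were among the calls lost without the first. FOSL2 (0.63) and NR3C1 (−0.72) were among those lost without the second. The lists of other cell types, apart from the fibroblast list, were low: summed levels were 2.54 to 3.90 CPM in the controls and 5.01 to 7.28 CPM after knockdown for 5 Schwann or glial markers, with SOX10 at 0, and 9.58 to 10.3 CPM and 12.4 to 14.3 CPM for 4 immune markers, with CD3E at 0. The 3 endothelial markers reached at most 1.03 CPM and the 4 adrenocortical markers at most 2.02 CPM in sum, with CYP17A1 and CYP11B1 at 0. The 5 fibroblast markers summed to 345 to 363 CPM in the controls and 392 to 423 CPM after knockdown, of which PDGFRB and LUM made most, while COL1A2 was at most at 0.218 CPM. With correction for GC content and length, 2 of the 4 tested fibroblast markers were higher, against 21.7% of all tested genes in that fit. These were PDGFRB (0.22, edgeR, adjusted p = 0.0166) and LUM (0.26, adjusted p = 0.0289). Neither passed in the uncorrected edgeR fit of all 4 libraries. The part of the markers of other cell types in the results was not tested.

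For the members that passed the test, the genes with the most similar pattern over the 4 libraries were sought among 15679 genes with a mean of at least 1 CPM, by the Euclidean distance of log2 CPM centred on each gene's mean. For ISL1 these were NEO1 at a distance of 0.0129, GTF2H3 at 0.0162 and MYOZ3 at 0.0174. For TBX2 they were FDPS at 0.0322, ENSG00000231608 at 0.0341 and NBEAL2 at 0.0526. NEO1, for example, was at 34.5 and 32.7 CPM in the controls and at 23.6 and 23.1 CPM after knockdown.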

How the data were processed

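RNA-seq libraries of SK-N-BE(2) cells (2 sh-Scb, 2 sh-SAPCD2) were analysed. Per the labels and the study's methods, paired-end reads were mapped with HISAT2 2.2.0 (hg38) and quantified with StringTie, and the authors deposited unscaled whole-number counts per Ensembl gene. How coverage became counts, the Ensembl release and the strandedness are not given in the sources used here. Of 64252 genes, 29317 had no count. Counts were filtered with filterByExpr (minimum count 10, minimum total 15), scaled by TMM and tested in edgeR 4.0.16 (glmQLFTest, R 4.3.3), with Benjamini-Hochberg adjustment over 18779 genes. The biological coefficient of variation was 15.4%. Totals were 25347900 to 31850997 counts, and 3 counts equaled 0.0942 to 0.118 CPM. Gene models came from GENCODE 44, which covered 93.0% of tested genes, and promoters from RefSeq (GRCh38.p14). The GC content and length correction was a loess offset per library (span 0.3). The other alternatives were DESeq2 1.42.0, its size factors, library totals, filters on low counts, the replicate block and each library left out in turn. The procedure was checked on simulated data.

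Named genes were the members and SAPCD2, the noncoding neighbors, at most the 5 called genes of a list with the smallest p, and the 3 most similar patterns per called member. Members and lists were chosen with earlier results of these data known, and lists came from general knowledge. Some genes of the lists are not reported here and were left out of the list counts.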

Additional observations from a re-analysis of the deposited data

How the results depend on the processing

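The count of 2 lower members held with DESeq2, its size factors, library totals, a mean of at least 1 CPM and the replicate block. It was 4 with correction for GC content and length, against 19.5% of all tested genes lower. It was 4 with that correction and the replicate block together (18.9%), and 1 without the filter on low counts (3.38%). Leaving out 1 library gave 0 to 5 lower and 0 to 4 higher members: 0 lower without either sh-Scb library, 3 lower and 4 higher without the first sh-SAPCD2 library, and 5 lower without the second. An arm with 1 library is assumed to vary like the other. The count of 0 DEGs held in these fits, and at an adjusted p under 0.05 alone it was 2. GATA2 reversed to −0.20 without the second sh-SAPCD2 library, and its range over the libraries left out was −0.20 to 0.21. The cause was not tested. Same-numbered libraries did not deviate together (correlation −0.0188). The gap between the sh-SAPCD2 libraries followed GC content and that between the sh-Scb libraries did not. This value therefore cannot tell whether the numbers pair the libraries. The replicate block gave 1 higher member, INSM1, at 0.64 (edgeR, adjusted p = 0.0270), against 15.2% of all tested genes higher in that fit. Of all tested genes, 4665 were called in either direction. This went to 3791 higher and 3402 lower with correction for GC content and length, 1081 and 1180 without the filter on low counts, and 1176 to 4396 higher and 1146 to 4014 lower when 1 library was left out. Counts for the gene lists under these settings were added after the data were seen.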
